A study of Homo sapiens with 3 samples.

Results

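Chromatin around 8 genes that carry microRNAs used in blood cells was described in ALL-SIL, a line of human leukaemia cells of the T lineage (T-ALL, T-cell acute lymphoblastic leukaemia). Studied here were MIR142HG, MIR181A1HG, MIR181A2HG, MIR17HG, MIR155HG, MIR22HG, MIR223 and DLEU2. They were chosen by name as microRNA hosts of blood cells, and every peak of both marks inside the RefSeq GRCh38 span of each gene or within 50 kb of either end was taken. Of the 8, 7 are long noncoding RNA (lncRNA) genes and MIR223 is a microRNA gene, out of 18303 lncRNA genes and 1913 microRNA genes in the annotation. Chromatin immunoprecipitation sequencing (ChIP-seq) had been carried out for 2 histone marks: H3K4me3, found at promoters in use, and H3K4me1, found at enhancers and beside promoters. There were 3 samples of the same line, an H3K4me1 library, an H3K4me3 library and input DNA, with no genetic change, agent or time course named in the labels. All cells came from 1 line, so what is described holds for that line and for 1 library per mark.

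MicroRNAs are made from longer transcripts, in which they form hairpins that the nucleases DROSHA and DICER1 cut out. The mature strand pairs with messenger RNAs through its seed, bases 2 to 8, and lowers their output. A host gene's own promoter can lie next to the hairpin or far upstream of it, so a promoter mark need not lie over the microRNA. In blood, miR-142 is made across haematopoietic lineages, miR-181a tunes T cell receptor sensitivity in thymocytes, the miR-17 to miR-92a cluster drives growth in lymphoid tumours, and miR-155 is induced in activated lymphocytes. In the same way miR-223 is known from myeloid cells, and miR-15a and miR-16 from the chromosome 13 deletion of chronic lymphocytic leukaemia.

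The mature microRNAs of the hosts are shown with the seed in capitals, because the seed sets which hosts belong together. The sequences are RefSeq's (GRCh38.p14), found for 17 of the 17 microRNA genes inside the 8 spans. For each hairpin the strand better known as the active one is given, both for miR-142, and none is given for MIR3613.
miR-142-3p: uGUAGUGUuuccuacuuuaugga
miR-142-5p: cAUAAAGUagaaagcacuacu
miR-181a-5p: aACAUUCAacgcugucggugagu
miR-181b-5p: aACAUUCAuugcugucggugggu
miR-17-5p: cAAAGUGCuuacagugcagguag
miR-20a-5p: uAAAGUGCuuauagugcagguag
miR-18a-5p: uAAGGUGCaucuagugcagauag
miR-19a-3p: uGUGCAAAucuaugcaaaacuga
miR-19b-3p: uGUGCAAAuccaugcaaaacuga
miR-92a-3p: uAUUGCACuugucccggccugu
miR-155-5p: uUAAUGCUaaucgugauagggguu
miR-22-3p: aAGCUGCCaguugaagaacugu
miR-223-3p: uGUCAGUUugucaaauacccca
miR-15a-5p: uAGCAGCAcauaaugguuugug
miR-16-5p: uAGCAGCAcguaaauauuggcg
The seed of miR-181a-5p and miR-181b-5p is identical and is encoded at both MIR181A1HG and MIR181A2HG, on chromosomes 1 and 9. Within MIR17HG, miR-17-5p shares its seed with miR-20a-5p and miR-19a-3p with miR-19b-3p, while miR-18a-5p and miR-92a-3p each have their own. The seed of miR-15a-5p and miR-16-5p is likewise shared within DLEU2. The seeds of miR-142-3p, miR-155-5p, miR-22-3p and miR-223-3p were found in no other microRNA gene of the table.

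As a check on the label, H3K4me3 lay within 1 kb of 7 of 8 T-lineage marker genes, the exception being the pre-T cell receptor chain PTCRA, and TLX1, the homeobox oncogene of this line, had a domain of 13.1 kb. It lay at 1 of 5 B-lineage genes (PAX5, 0.197 kb), 0 of 6 myeloid and 0 of 5 erythroid genes, against 53.4% of all protein-coding genes. The H3K4me3 library held 30823016 filtered tags, the H3K4me1 library 34813455 and the shared input 18859011. Each mark had a single library, so replicate error is unknown and genes were not tested against each other. The number of peaks called also moves with depth.

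Every lncRNA host carried H3K4me3, and MIR223 did not. A peak lay in the span plus 50 kb of 7 of the 8 genes, against 36.7% of lncRNA genes (95% exact interval 36 to 37.4). A peak lay within 1 kb of the span itself in the same 7, against 15.5% of lncRNA genes (15 to 16) and 32.5% of the 271 lncRNA genes that hold a microRNA gene (26.9 to 38.4). The windows held 16 H3K4me3 peaks and 88 H3K4me1 peaks. The H3K4me3 peak nearest the window's limit was 45.9 kb from DLEU2, at SPRYD7, and the nearest beyond it was 60.4 kb from DLEU2. The longest H3K4me3 domain of each host (peaks joined across gaps of up to 1 kb) ranged from 1.67 kb at MIR22HG to 11.3 kb at MIR142HG, with a median of 2535 bp over the 7 hosts. Marked lncRNA genes as a whole had a median of 1593 bp, and marked ones that hold a microRNA gene 1678 bp. The median span was 13 kb for the 7 hosts and 9.04 kb for all lncRNA genes and 25.1 kb for the 271 that hold a microRNA gene, and a longer span has more room for peaks. Domains of at least 4 kb, called broad, were at MIR142HG, MIR181A1HG and DLEU2, 3 of the 7, against 0.727% of lncRNA genes and 4.06% of the microRNA-holding ones. The genes were picked as well known blood microRNA hosts with earlier results known, so nothing is read from their shares standing above these backgrounds. When H3K4me3 peaks below a −log10 q of 10 were dropped, 4 of the 8 genes had one within 1 kb (MIR142HG, MIR181A1HG, MIR17HG and DLEU2).

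**Figure D1:**
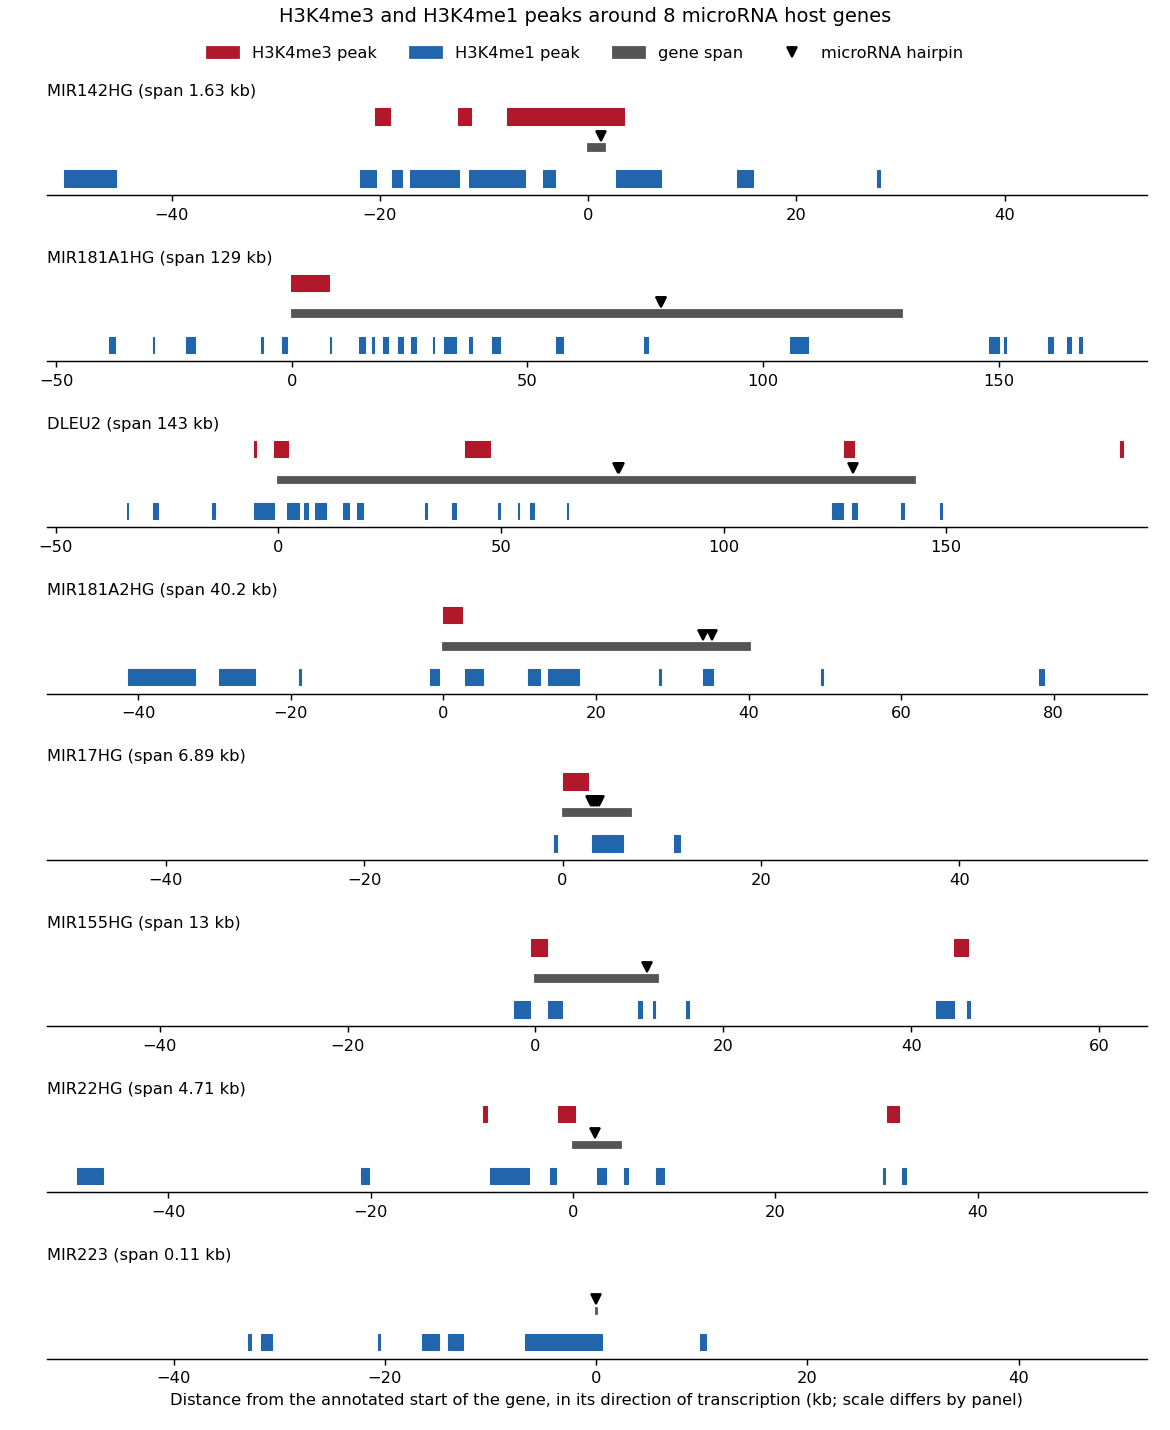
Peaks around each gene, with distance from its annotated start in kb on the x axis (scale differs by panel), H3K4me3 in red above, H3K4me1 in blue below, the gene span in grey and hairpins as triangles. H3K4me3 lies over the annotated start of every lncRNA host except MIR17HG, where it begins 55 bp past it. It is missing around MIR223, where a 7.35 kb H3K4me1 peak covers the hairpin.

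MIR142HG had the longest domain of the set. The gene is 1.63 kb long, at chr17:58330888-58332520 on the minus strand, and holds MIR142. A single H3K4me3 peak of 11.3 kb (chr17:58329049-58340306) covered 100% of it, reaching 7786 bp upstream of the start and 3471 bp into and past the gene. Its fold over the local input background, a mean over the peak from the authors' caller, was 5.46, higher than 67.1% of H3K4me3 peaks, while its length was above 99.9% of them. It ranked 7th of 18303 lncRNA genes by domain length. The peak lay over part of TSPOAP1-AS1, an antisense lncRNA gene that spans MIR142HG, and over a further microRNA gene, MIR4736, upstream of MIR142HG. It therefore cannot be assigned to MIR142HG alone. H3K4me1 covered 33.3% of the domain, at both edges and in a patch of 1.20 kb, and 100% of the 2 kb beyond each edge. It left the gene itself clear, with 0 bp in the span, and the nearest H3K4me1 to the MIR142 hairpin was 1390 bp away. Of the window, 24.3% was under H3K4me1, the highest of the 8 genes. The other H3K4me3 peaks of this window were an upstream one of 1.29 kb inside TSPOAP1-AS1 and one of 1.47 kb at the neighbouring ends of SUPT4H1, a transcription elongation factor gene, and RNF43. MPO, the myeloperoxidase gene of neutrophils, reaches into the edge of the window and had no H3K4me3 within 48.1 kb.

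MIR181A1HG and MIR181A2HG encode the same miR-181a-5p and miR-181b-5p, with 3p strands that differ, and had H3K4me3 domains of different length. MIR181A1HG (chr1:198808003-198937429, minus strand, 129 kb) had 1 H3K4me3 peak of 8.02 kb (chr1:198929619-198937637, fold 4.86). It began 208 bp upstream of the annotated start and ran 7810 bp into the gene. MIR181A2HG (chr9:124658436-124698628, 40.2 kb, inside the nuclear receptor gene NR6A1) had 1 peak of 2.50 kb (chr9:124658407-124660908, fold 4.20), which also began at the start and ran 2472 bp inward. The folds of the pair were close, and the lengths were at the 99.7 and 87.1 percentiles of the H3K4me3 list. Neither domain held any H3K4me1. Beside it, H3K4me1 covered 50.2% of the 2 kb upstream and 13.4% of the 2 kb downstream at MIR181A1HG, and 54.6% and 83.3% at MIR181A2HG.

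The H3K4me1 of this pair differed in height, and in number over windows of unlike length. MIR181A1HG had 23 H3K4me1 peaks in its window of 229 kb, 13 of them in the gene, with folds from 1.14 to 3.88. Of that window 11.4% was covered. MIR181A2HG had 11 in its window of 140 kb, 5 of them in the gene, with folds from 1.69 to 5.29 and 17.9% covered. The longer gene and window have more room for peaks. The highest and the longest peaks of MIR181A2HG, at folds of 5.29 (4.68 kb) and 4.36 (8.69 kb), lay upstream of the host, inside NR6A1. With as many H3K4me1 as H3K4me3 peaks, MIR181A2HG kept 11.1% of its window under H3K4me1, and the next highest of the 8 genes was DLEU2 with 1.14%.

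At the hairpins the pair differed too. MIR181A1 and MIR181B1 lay 78.3 and 78.4 kb from the host's start, 70.5 and 70.6 kb beyond the H3K4me3 domain, and 2.67 and 2.84 kb from the nearest H3K4me1 peak. MIR181A2 and MIR181B2 lay 34.0 and 35.3 kb from their host's start and under a 1.35 kb H3K4me1 peak with a fold of 2.79. That peak began 8 bp before MIR181A2 and ended inside MIR181B2, so it covered 100% of the first hairpin and 83.1% of the second. The strand of MIR181A2HG was taken from its microRNAs, since the promoter table has no entry for it.

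MIR17HG, host of the miR-17 to miR-92a cluster, had a compact arrangement. The gene (chr13:91347687-91354577, plus strand, 6.89 kb) had 1 H3K4me3 peak of 2.54 kb (chr13:91347742-91350276). Its fold of 7.12 was the highest among the peaks at the 8 genes themselves and exceeded 86.2% of the H3K4me3 list. The peak began 55 bp past the annotated start and ended 328 bp before MIR17. The 6 hairpins follow within 787 bp, and 769 bp of that stretch was under an H3K4me1 peak of 3.20 kb with a fold of 1.95. MIR18A, MIR19A, MIR20A, MIR19B1 and MIR92A1 were covered over their full length and MIR17 over 78.6%. H3K4me3 thus covered 36.8% of the gene and H3K4me1 46.5% of it, with 346 bp between the peaks and the cluster on the H3K4me1 side. Outside the gene the window was nearly empty. Of the window's 3 H3K4me1 peaks, 1 was the 3.20 kb one in the gene, and the others were of 0.298 and 0.657 kb. With the gene included, 3.89% of the window was covered, and the next H3K4me3 peak was 3194 kb away.

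MIR155HG and MIR22HG had the shortest domains. MIR155HG (chr21:25562145-25575168, plus strand, 13 kb) had a peak of 1.74 kb across its start (chr21:25561627-25563365, fold 4.18), from 518 bp upstream to 1220 bp downstream. H3K4me1 lay close on both sides, 26 bp before and 71 bp after it, and covered 85.9% and 74.8% of the 2 kb flanks. MIR155 was at the far end of the host, 90.9% of the way along, 10.6 kb past the H3K4me3 peak and 535 bp from an H3K4me1 peak of 0.432 kb. The window's other H3K4me3 peak, of 1.43 kb and fold 7.5, was at an end of MRPL39, a mitochondrial ribosomal protein gene.

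MIR22HG (chr17:1711504-1716210, minus strand, 4.71 kb) had a peak of 1.67 kb (chr17:1716026-1717694, fold 5.38) of which 185 bp lay in the gene. The rest lay upstream, over the start region shared with WDR81, so the peak cannot be assigned to either gene alone. H3K4me1 was 195 bp from it on the WDR81 side, while on the MIR22HG side the nearest was 2209 bp away. MIR22 was 2038 bp beyond the H3K4me3 peak and 86 bp from an H3K4me1 peak of 0.919 kb. Of this window 10.1% was under H3K4me1, and of that of MIR155HG 5.55%.

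DLEU2, the host of miR-15a and miR-16, had 3 separate domains in 143 kb (chr13:49982549-50125541, minus strand). One of 3.21 kb (fold 5.05) covered the outer start, where DLEU2 overlaps DLEU1. A longer one of 5.57 kb (chr13:50078013-50083585, fold 5.53) covered a further annotated start 43.5 kb inward, where the DLEU1 span begins. This longer domain lies over both genes and cannot be assigned to DLEU2 alone. The count of DLEU2 as broad rests on it, since the outer domain is below 4 kb. The third, of 2.19 kb and fold 3.12, lay near the far end over an end of TRIM13, a ubiquitin ligase gene within DLEU2. The TRIM13 domain also covered MIR3613, the only hairpin of the 17 under both marks. MIR15A and MIR16-1 lay 32.8 and 33.0 kb from the inner start and 76.3 and 76.5 kb from the outer one. They were 28.8 and 29.0 kb from the inner domain and 11.3 and 11.5 kb from the nearest H3K4me1 peak, farther from H3K4me1 than any other hairpin of the set. DLEU2 had 19 H3K4me1 peaks, 14 of them in the gene. The highest, at folds of 5.75, 5.84 and 6.14, all lay upstream of the outer start inside DLEU1, and DLEU2 was the only one of the 8 windows that kept H3K4me1 when a −log10 q of 10 was required (0.636% of the window).

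MIR223 (chrX:66018870-66018979, plus strand) had H3K4me1 and no H3K4me3. The nearest H3K4me3 peak was 349 kb away. The gene lies within the lncRNA gene MIR223HG, which is no member and likewise had no H3K4me3 within 50 kb. A H3K4me1 peak of 7.35 kb (chrX:66012091-66019444, fold 2.22) covered 100% of the hairpin and 80.2% of MIR223HG, and its length was above 96.9% of H3K4me1 peaks. The window held 7 H3K4me1 peaks with folds from 1.5 to 2.59 and 12.4% of bases covered. None of these 7 peaks reached the list's median −log10 q of 2.27, so the window had 0% cover above that median.

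H3K4me1 lay in the span of 6 of the 7 lncRNA hosts, against 28% of lncRNA genes and 45.4% of those that hold a microRNA gene, with MIR142HG as the exception. Cover of the window ranged from 3.89% at MIR17HG to 24.3% at MIR142HG, with a median of 10.1%. The median was 2.19% over the 271 microRNA-holding lncRNA genes and 1.02% over all lncRNA genes. Of the 9 domains within 1 kb of the hosts, 7 had H3K4me1 within 2 kb on both sides (59.4% of all H3K4me3 domains), and 6 held none inside (53.1%). The longest domain of each host was free of H3K4me1 in 6 of 7 cases. Of the 88 H3K4me1 peaks in the 8 windows, 40 (45.5%) reached the list's median −log10 q, and 2 (2.27%) reached 10, against 2.82% of all H3K4me1 peaks. Over the hairpins, 10 of the 17 hairpins were under one, but 2 when peaks under the median −log10 q were dropped and 0 when a −log10 q of 10 was required. In the same 2 settings H3K4me1 lay in 3 and 0 of the 8 genes.

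**Figure D2:**
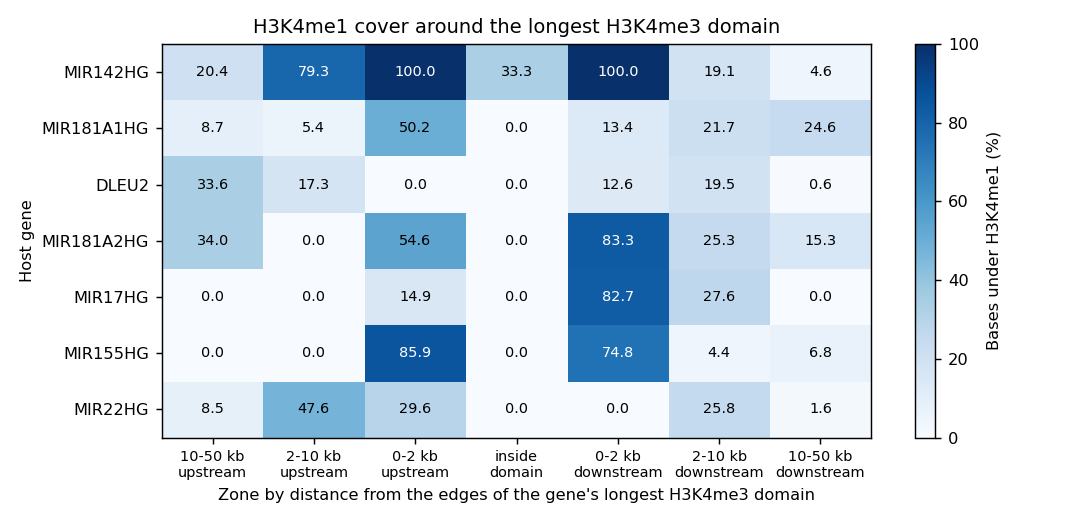
Percent of bases under H3K4me1 (colour and number) for the 7 lncRNA hosts (rows) in zones upstream of, inside and downstream of each gene's longest H3K4me3 domain (columns). The inside zone is 0% except at MIR142HG (33.3%), and the 2 kb flanks range from 0% to 100%.

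**Figure D3:**
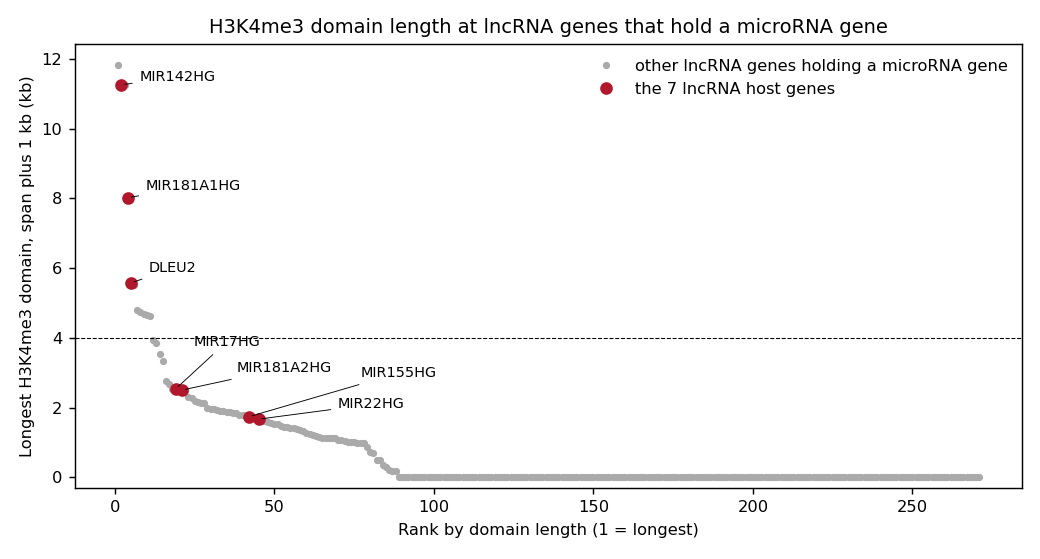
Longest H3K4me3 domain in kb (y axis) of the 271 lncRNA genes that hold a microRNA gene, by rank (x axis), with the 7 hosts in red and a dashed line at 4 kb. MIR142HG, MIR181A1HG and DLEU2 rank 2nd, 4th and 5th, and MIR155HG and MIR22HG rank 42nd and 45th.

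The place of the microRNA relative to the marks fell into several patterns. H3K4me3 covered 2 of the 17 hairpins, MIR142 and MIR3613, against 6.38% of all microRNA genes. H3K4me1 covered 10, at MIR17HG, MIR181A2HG, MIR223 and DLEU2, against 10.6%. Of these, 9 were under H3K4me1 alone, and 6 of them are neighbours under a single peak of MIR17HG. Among the H3K4me1 peaks over hairpins, only that of MIR181A2HG (−log10 q 2.66) reached the list's median of 2.27. Those over the MIR17HG cluster, MIR223 and MIR3613 (1.26, 1.61 and 1.63) did not. A further 6 hairpins were under neither mark (MIR181A1, MIR181B1, MIR155, MIR22, MIR15A and MIR16-1). The median distance to H3K4me3 was 2.04 kb for the 17 hairpins and 53.6 kb for all microRNA genes, and 9 of the 17 had H3K4me3 within 10 kb, against 25.6%. The other 8 were the 4 miR-181 hairpins, MIR15A, MIR16-1, MIR155 and MIR223. The 6 neighbours of MIR17HG, beside a single H3K4me3 peak, are among the 9 and weigh on the median. The 17 hairpins are thus not separate loci.

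**Figure D4:**
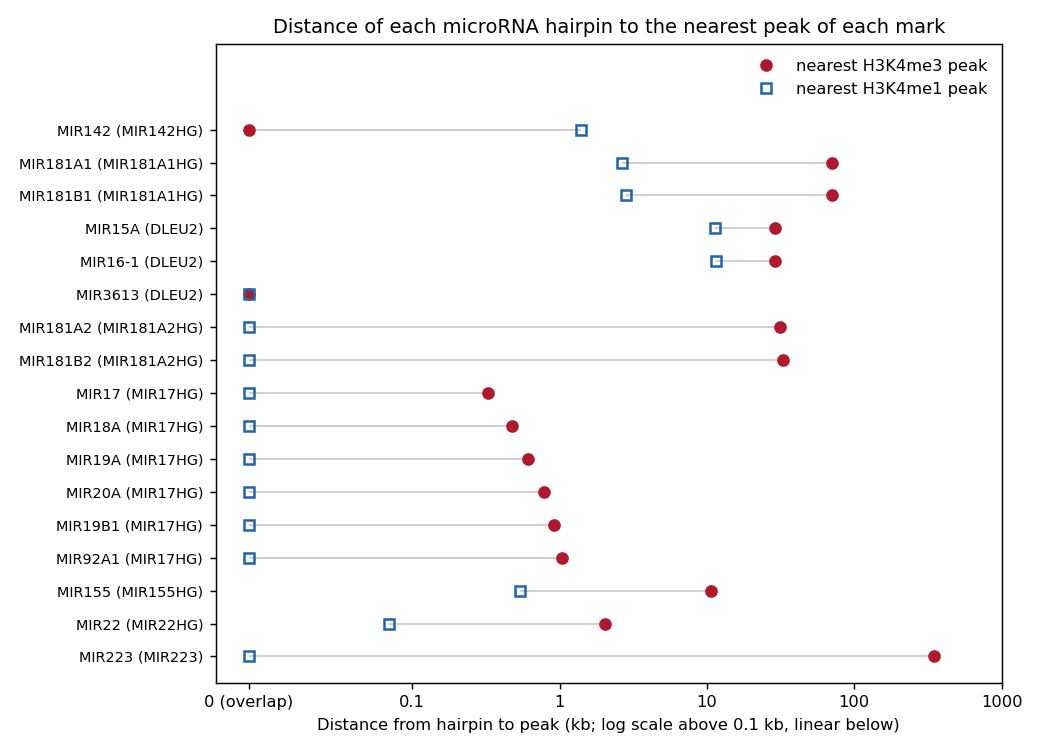
Distance in kb (x axis, log scale above 0.1 kb) from each of the 17 hairpins (y axis, host in brackets) to the nearest H3K4me3 peak (red circles) and H3K4me1 peak (blue squares), with 0 for an overlap. MIR142 and MIR3613 sit at 0 for H3K4me3, while the MIR17HG hairpins sit at 0 for H3K4me1 and between 0.328 and 1.04 kb for H3K4me3.

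The promoter windows show how unlike the marked starts are in sequence. RefSeq promoters (250 bases before to 50 after a start, GRCh38.p14, read on the gene's strand) were found for 6 of the 8 genes, with 7 windows, since DLEU2 has 2. Of the 7, 6 were under H3K4me3, against 35.2% of 35116 windows, and 0 under H3K4me1, against 13%. The exception was MIR17HG, whose peak begins just past its window. The motifs searched on both strands were the E-box CACGTG, the AP-1 site TGANTCA, the TATA box as TATAAA, the CCAAT box, the GC box GGGCGG, the RUNX site TGTGGT, the GATA site AGATAA and the ETS site CCGGAA. Matches of 1 motif may overlap each other, and matches are in capitals in the 5 windows printed below, which are those of MIR142HG and MIR181A1HG (the longest domains), of the cluster host, of the outer start of DLEU2 and of the activation-induced host.
MIR142HG, chr17:58332471-58332770: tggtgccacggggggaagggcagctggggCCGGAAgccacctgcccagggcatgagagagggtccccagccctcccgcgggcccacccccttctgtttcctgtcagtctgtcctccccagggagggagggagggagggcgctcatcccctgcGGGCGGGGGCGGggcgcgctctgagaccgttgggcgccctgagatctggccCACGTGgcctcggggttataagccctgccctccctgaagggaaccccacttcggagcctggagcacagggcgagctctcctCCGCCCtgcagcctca
MIR181A1HG, chr1:198937380-198937679: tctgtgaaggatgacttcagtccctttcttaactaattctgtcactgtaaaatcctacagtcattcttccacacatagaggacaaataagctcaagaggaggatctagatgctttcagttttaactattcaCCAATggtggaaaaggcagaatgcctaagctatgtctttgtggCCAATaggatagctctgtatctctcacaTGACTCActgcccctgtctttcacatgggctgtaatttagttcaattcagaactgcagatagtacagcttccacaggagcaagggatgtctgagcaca
MIR17HG, chr13:91347437-91347736: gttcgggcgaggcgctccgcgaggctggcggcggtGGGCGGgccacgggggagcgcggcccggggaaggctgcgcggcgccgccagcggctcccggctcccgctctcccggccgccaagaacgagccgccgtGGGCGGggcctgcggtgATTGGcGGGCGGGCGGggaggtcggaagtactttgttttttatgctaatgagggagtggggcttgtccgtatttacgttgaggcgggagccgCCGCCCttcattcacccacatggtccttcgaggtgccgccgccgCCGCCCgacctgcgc
DLEU2, chr13:50125492-50125791: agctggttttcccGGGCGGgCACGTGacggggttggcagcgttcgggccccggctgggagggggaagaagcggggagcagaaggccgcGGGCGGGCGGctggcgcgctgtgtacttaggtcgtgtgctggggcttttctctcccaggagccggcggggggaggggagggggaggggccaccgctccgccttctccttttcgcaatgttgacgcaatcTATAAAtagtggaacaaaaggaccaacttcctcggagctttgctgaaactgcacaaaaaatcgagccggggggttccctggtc
MIR155HG, chr21:25561895-25562194: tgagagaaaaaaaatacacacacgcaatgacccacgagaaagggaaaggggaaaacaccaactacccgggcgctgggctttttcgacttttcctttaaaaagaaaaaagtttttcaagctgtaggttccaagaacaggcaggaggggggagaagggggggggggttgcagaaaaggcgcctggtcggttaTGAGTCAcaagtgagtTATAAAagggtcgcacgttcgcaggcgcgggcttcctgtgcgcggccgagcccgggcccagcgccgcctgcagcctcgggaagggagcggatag

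MIR142HG and the outer start of DLEU2 each held 1 E-box, which stood in 7.26% of all windows, and 3 GC boxes (a GC box stood in 45.0%). The MIR142HG window also held 1 ETS match, as did 17.2% of windows. MIR17HG held 6 GC boxes and 1 CCAAT box (34.6%), and had 42 CpG dinucleotides, more than 94.2% of windows. MIR155HG held 1 AP-1 match (7.71%) and 1 TATA box (11.5%), with 20 CpG. DLEU2 had 24 CpG and 1 TATA box at its outer start and 23 CpG at the inner one. MIR181A1HG, in contrast, had 0 CpG and a GC content of 42.3%, with 1 AP-1 match and 2 CCAAT boxes, although 86.0% of its window was under the 8.02 kb H3K4me3 domain. Of the 12357 windows under H3K4me3 only 12 (0.0971%) had no CpG, and their median was 27. The RUNX and GATA motifs were in none of the 7 windows. A match is a string of letters and shows no binding.

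The nearest counterparts by the 2 measures together were sought among the other 264 microRNA-holding lncRNA genes, using the log2 domain length and the H3K4me1 cover of the window. MIR17HG was closest to MIRLET7IHG (2.47 kb, 5.04% covered) and MIR3677HG (2.28 kb, 3.66%), at distances of 0.12 and 0.15 in these units. MIR155HG was closest to LOC107986064 (1.77 kb, 6.97%, distance 0.14) and to MIR4733HG (1.56 kb, 8.19%, distance 0.31), and MIR22HG to MIR4733HG and MIR3667HG (0.21 each). DLEU2 and MIR181A1HG were both closest to ATXN7L3-AS1 (5.51 kb, 12.7%), at 0.30 and 0.56, followed by MIR497HG (3.86 kb, 14.4%), at 0.71 and 1.10. MIR181A2HG was closest to THBS3-AS1 (1.85 kb, 18.9%, distance 0.45) and LOC105373512 (1.95 kb, 15.0%, distance 0.46). MIR142HG had TSPOAP1-AS1 as its nearest (0.30), which shares its domain, and then NEAT1 (4.62 kb, 28.1%) at 1.34.

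A list of 13 related microRNA genes, in 4 clusters and chosen by hand, lay near H3K4me3 but not under it. They had H3K4me3 within 10 kb in 13 of 13 cases and over the hairpin in 0, at a median of 1.77 kb. Over all microRNA genes these shares were 25.6% and 6.38%. The miR-106a cluster on chromosome X, a copy of the miR-17 cluster, lay between 1.34 kb (MIR106A) and 2.17 kb (MIR363) from a peak. MIR106B, MIR93 and MIR25 lay 4.50, 4.28 and 4.07 kb away, MIR181C and MIR181D 1.59 and 1.77 kb, and MIR15B and MIR16-2 1.27 and 1.43 kb. None of the 13 was under H3K4me1, against 10.6% of all microRNA genes. The list does not hold every gene that shares a seed with the hosts. Of the 3 other genes with the miR-181 5p seed, MIR181C and MIR181D had H3K4me3 within 2 kb and MIR4262 lay 89223 bp from it, while the hairpins of the 2 hosts lay 31.5 to 70.6 kb away. Of 6 other genes with the miR-92a-3p seed, MIR92B was under H3K4me3. Of 6 with the seed of miR-15a-5p and miR-16-5p, all 6 had H3K4me3 within 10 kb and 3 were under H3K4me1 (MIR195, MIR497 and MIR6838). Of 6 with the seed of miR-17-5p, 4 had H3K4me3 within 10 kb, and MIR526B and MIR519D lay 139626 and 158580 bp from it.

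Among 26 other microRNA genes studied in blood, 2 were under H3K4me3 (MIR21 and MIR210), against 6.38% of all microRNA genes. Within 10 kb it was found for 11, against 25.6%. Under H3K4me1 were 7 (MIR150, MIR29A, MIR29B1, MIR26A1, MIR23A, MIR27A and MIR24-2), against 10.6%. The median distance to H3K4me3 was 29.6 kb. MIR21, a growth-linked microRNA, lay in a domain of 3.69 kb, and MIR150, of mature lymphocytes, was 0.034 kb from a peak of 0.499 kb. Of 19 microRNA genes of other tissues 0 were under H3K4me3, 3 had it within 10 kb (MIR200A, MIR200B and MIR200C) and 1 was under H3K4me1 (MIR200C), with a median distance of 86.7 kb. Over all microRNA genes the 3 shares were 6.38%, 25.6% and 10.6%, in the same order. In both lists neighbours are counted singly, such as MIR23A, MIR27A and MIR24-2, or MIR200A and MIR200B. The counts are therefore not of separate loci.

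**Figure D5:**
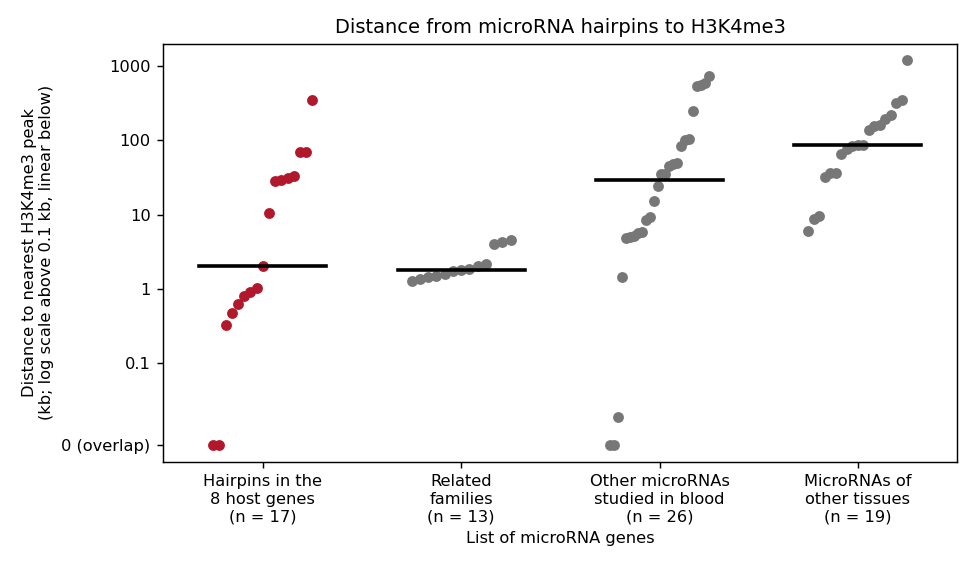
Distance in kb to the nearest H3K4me3 peak (y axis, log scale above 0.1 kb) for the 17 host hairpins (red) and 3 other lists of microRNA genes (grey), with the median as a bar. The medians are 2.04, 1.77, 29.6 and 86.7 kb from left to right. Neighbouring hairpins are separate points, so the 6 of MIR17HG weigh on the first median.

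Among 18 genes of the machinery that processes these transcripts, H3K4me3 lay within 1 kb of 17, against 53.4% of protein-coding genes. H3K4me1 lay in the span of 18, against 60.5% of protein-coding genes. DROSHA and its partner DGCR8, which cut the hairpin from the transcript, had domains of 2.08 and 1.72 kb, XPO5, the exporter, 2.50 kb, and DICER1 2.22 kb. The longest were at LIN28B, which blocks let-7 maturation (4.69 kb), and at TNRC6C, a partner of Argonaute (3.996 kb). Next came TARBP2, a partner of DICER1 (3.01 kb), TUT4, which adds uridines to let-7 precursors (2.66 kb), and RAN, which XPO5 needs (2.61 kb). LIN28A was the exception, with its nearest H3K4me3 at 2.49 kb.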

How the data were processed

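H3K4me1, H3K4me3 and input libraries of ALL-SIL had 1 sample each, grouped by title. Per the file headers, the authors called broad peaks against the input (MACS2 2.1.0.20150731, q of 0.1 for broad and 0.05 for strong regions, 1 tag per position). The submitters' processing notes name GRCh38. The aligner is not given in words in the sources used here, but read file names in the headers carry STAR. The deposited tables give each peak a pileup (a coverage signal), a fold enrichment, which the caller takes as a ratio to local background, and −log10 of p and q, as means over the broad region. Such a mean can lower the fold of a long peak.

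Genes, hairpins and sequences came from RefSeq tables of GRCh38.p14, and 18303 lncRNA genes on the main chromosomes were the background. Peaks joined across gaps of up to 1 kb formed domains, and overlap counted from 1 bp. Distances are the bases between 2 features. No test was run. Where a share is given with an exact 95% interval, the interval is for counting error. Interval functions were tested on simulated data. Members, lists and motifs were chosen with earlier results of these data known. Named were all members, every microRNA gene inside them, genes under their domains, their 2 nearest counterparts and, from each list, all genes on a side with 5 or fewer, otherwise the 6 with the longest domain. DROSHA, DGCR8, DICER1, the related and seed-sharing microRNA genes and those under H3K4me1 were named besides, after their values were seen. Python 3.11.15, pandas 2.3.3 and numpy 2.4.6 were used.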

Additional observations from a re-analysis of the deposited data

How the results depend on the processing

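Of 28 recomputed counts 17 stayed within 1.5 times the reported one, and 11 moved. The 17 include H3K4me3 counts recomputed with as many H3K4me1 as H3K4me3 peaks. That setting leaves the H3K4me3 peaks unchanged, so these counts could not move. Windows of 100 kb and margins of 5 kb are among the 17 too, and could only keep or raise a count. Also within 1.5 times, the genes with H3K4me3 in the span plus 50 kb fell from 7 to 5 at a −log10 q of 10. Above the list's median −log10 q they fell to 6, and the genes with H3K4me3 within 1 kb fell to 5. Requiring a −log10 q of 10, the genes with H3K4me3 within 1 kb went from 7 to 4, those with in-gene H3K4me1 from 7 to 0, hairpins under H3K4me3 from 2 to 1 and hairpins under H3K4me1 from 10 to 0. Above each list's median −log10 q, in-gene H3K4me1 was at 3 genes, and 1 hairpin was under H3K4me3 and 2 under H3K4me1. With as many H3K4me1 as H3K4me3 peaks (−log10 q from 4.85), the H3K4me1 counts were 1 gene and 0 hairpins. The −log10 q settings keep fewer peaks of both marks, and the setting with equal numbers keeps fewer H3K4me1 peaks only. Calling a domain broad from 2 kb gave 5 genes in place of 3, and counting hairpins within 1 kb of H3K4me3 gave 7. The number of genes with a domain of at least 4 kb was 3 in each of the 5 other settings tried for it (the 3 peak selections above, unjoined peaks, and joining across 3 kb). The selection by equal numbers could not move this count. Nor could unjoining, since each domain at these genes was 1 peak. No paired analysis was possible because each mark had 1 library, and for the same reason no replicate could be left out. Few H3K4me1 peaks of the whole list reach the stricter thresholds (1750 of 62087 have a −log10 q of 10 or more), so counts on H3K4me1 fall with them. Depth was not varied.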

Other observations

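Hairpins under a long H3K4me3 domain were few: 9 of 1913 microRNA genes lay under one of at least 4 kb. Besides MIR142 and MIR4736, which share the 11.3 kb domain of MIR142HG, they were MIR3610 (11.8 kb, the longest), MIR6090 (7.32 kb), MIR3175 (5.23 kb), MIR3153 (4.89 kb), MIR4734 (4.81 kb), MIR636 (4.78 kb) and MIR3917 (4.27 kb). Of these 9, MIR4736, MIR3175 and MIR4734 were also under H3K4me1. Among lncRNA genes holding a microRNA gene, RAD21-AS1, antisense to a cohesin subunit gene, had the longest domain. It is the same 11.8 kb domain that covers MIR3610, and 42.4% of the RAD21-AS1 window was under H3K4me1. These genes were singled out after their values were seen.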
